A study of Brassica oleracea var. italica with 2 samples.

Results

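Of the 54 sequences deposited as newly identified miRNA candidates of broccoli (Brassica oleracea var. italica), 8 are described here. They were 22 nt or shorter and had no listed stem-loop on Scaffold000273 or in the 0.3 Mb of chromosome A06 from 20 Mb on. That stretch is called the A06 repeat here, and its limits were set by the choice of members, not measured. The 8 sequences came with 38 of the 281 listed stem-loop windows. Of the other sequences, 24 had a stem-loop at the A06 repeat or on Scaffold000273, and 22 were 23 nt or longer and lay elsewhere. Each sequence was counted once and is named here short-a to short-h by its total reads. Of these, short-b, short-f and short-h are identical to the sequences that the study numbered 18, 35 and 30.

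Small RNAs were sequenced from the shoot apex of 54-day-old plants of a heat-tolerant (HT) and a heat-sensitive (HS) line, described in the labels as isogenic lines with a high and a low curd-forming capacity. Both lines were grown at 22 °C with 18 h of light and 6 h of dark, so the libraries differ in genotype and not in temperature. There was 1 library per genotype, of 27069903 reads for HT and 26253036 for HS. Without a replicate, a difference between the libraries cannot be told apart from a difference between plants or preparations, and the intervals below cover counting error only.

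Plant miRNAs are cut by Dicer-like enzymes from the stem of a folded RNA, together with the partner strand called miRNA*, and guide an Argonaute protein to complementary transcripts. Pairing is weighted toward the 5′ part of the small RNA, and many conserved plant miRNAs begin with uracil. Other abundant RNAs also break down into pieces of similar length, so a candidate is usually judged by the fold of its precursor and by its partner strand.

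The 8 candidates are shown in full, because all results below are about these letters. They are written as DNA, 5′ to 3′, and bases 2 to 8, the seed, are in capitals.
short-a: gCGTCTGTagtccaacggt
short-b: gAGACGTTtgagcttcgacgc
short-c: gGGGATGTagctcaaat
short-d: gGGGATGTagctcaaatg
short-e: gTGGACGTgccggagtgg
short-f: aGACAGACtgtactagcgacgc
short-g: tTAGGATAatagaggattcaac
short-h: gGATTGGCtctgagggctggg
Only short-c and short-d had the same seed as another deposited candidate, namely each other's. None of the 1400 known miRNA records carried any of these seeds, and the longest run shared with a known miRNA was between 7 nt, in short-e and short-g, and 10 nt, in short-a.

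The lengths ran from 17 nt in short-c to 22 nt in short-f and short-g, with a median of 20 nt. The sequences short-c, short-d and short-e were shorter than 19 nt, and of all 54 candidates these 3 were the only ones below that length. Base 1 was G in 6 of the 8 candidates, A in short-f and T in short-g. Among all 54 candidates it was G in 21, A in 17, C in 10 and T in 6. Of the 118 known mature records with reads, 83 (70.3%) began with T and 6 (5.08%) with G. GC content ranged from 31.8% in short-g to 72.2% in short-e, with a median of 55.8% against 54.2% over all candidates.

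Levels are given as reads and as TPM, the reads scaled to a library of 1000000. The most abundant was short-a, with 3917 reads in HT and 7927 in HS, or 144.7 and 301.9 TPM. It ranked first among the 54 candidates in both libraries and held 59.0% of the reads of the 8 candidates in HT and 60.3% in HS. Among the 169 of 1400 known miRNA records with reads, 2 had more reads than short-a in HT, and in HS none did. These records sum to 38431 reads in HT and 28582 in HS. The paper counts far more reads of known miRNAs in both libraries, so short-a cannot be ranked against all known miRNAs here.

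The other 7 candidates were between 7.83 TPM (short-h in HT) and 45.2 TPM (short-b in HS). Candidate short-b was represented by 333 reads in HT and 1187 in HS, or 12.3 and 45.2 TPM. For short-c the reads were 473 and 953, or 17.5 and 36.3 TPM. The sequence that is 1 nt longer, short-d, had 324 and 932 reads, or 11.97 and 35.5 TPM. All 3 were lower in the HT library.

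In contrast, short-e was higher in the HT library, with 748 reads against 315, or 27.6 and 12 TPM. It ranked 22nd of 54 in HT and 47th in HS. The remaining members were again lower in HT. There were 334 reads of short-f in HT and 702 in HS, or 12.3 and 26.7 TPM. For short-g the libraries held 299 and 565 reads, or 11.05 and 21.5 TPM. The lowest was short-h, with 212 and 556 reads, or 7.83 and 21.2 TPM, and it ranked 53rd of 54 in HT. Thus 7 of the 8 candidates were lower in HT and 1 was higher, and in each of them the counting intervals of the libraries did not overlap.

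**Figure D1:**
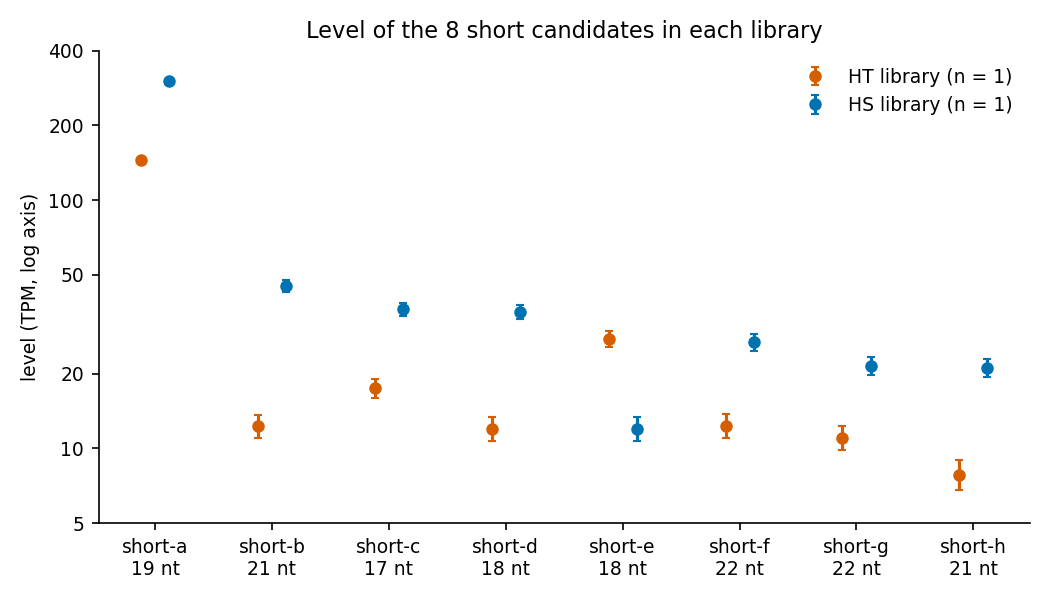
Level (TPM, log axis) of each short candidate in the HT and the HS library, with exact 95% Poisson intervals of the counts (n = 1 library per genotype). Short-a stands above all others at 144.7 and 301.9 TPM, and short-e is the one candidate whose HT point lies above its HS point.

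The fold changes describe these libraries only, since a sequence had been listed in the deposited tables because its reads differed between them. The largest was in short-b, 3.68-fold lower in HT than in HS (95% interval 3.25 to 4.16). It was followed by short-d, 2.97-fold lower (2.61 to 3.38), and short-h, 2.70-fold lower (2.30 to 3.18). For short-h, the authors report that stem-loop qRT-PCR gave another pattern than their sequencing, and they describe its expression as constant. The 3 other candidates more than 2-fold lower in HT were close together: 2.17-fold lower for short-f (1.90 to 2.48), 2.09-fold for short-a (2.01 to 2.17) and 2.08-fold for short-c (1.86 to 2.32). These values lie in a narrow band, and the intervals of short-f, short-a and short-c overlap.

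The fold change of short-e was 2.30 in favour of HT (2.02 to 2.64). That of short-g was 1.95-fold lower in HT (1.69 to 2.25), just under 2-fold, while short-c lay just beyond it. With thresholds taken from the text that describes the series (p under 0.01, here from Fisher's exact test, two-sided, on the reads, and a fold change over 2) 7 of the 8 were called, 6 lower and 1 higher in HT. Over all deposited candidates 87.0% were called, 63.0% lower and 24.1% higher in HT, which the choice of the tables fixes in large part. Among the 169 known miRNA records with reads, which were not listed for a difference, 14.8% were called, 4.14% lower and 10.7% higher in HT. These records were also less deeply read. In each library 50 of them had at least 50 reads, while every deposited candidate had at least 202, so the shares are not at like depth.

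The median fold change (HT/HS) was 0.470 over the short candidates, 0.400 over the A06 group, 1.40 over the long candidates elsewhere and 0.467 over all 54. The direction was 7 lower to 1 higher in the short candidates, 23 to 1 in the A06 group and 11 to 11 in the long candidates elsewhere. Hence the short candidates lay in the same range as the A06 group, whereas the long candidates fell on both sides. The reads of the 8 candidates summed to 6640 for HT and 13137 for HS, giving 0.490 (0.476 to 0.505). Without short-a, the sums were 2723 and 5210 reads and the fold change was 0.507 (0.484 to 0.531). The 8 sequences made up 13.9% of the HT and 15.9% of the HS reads of all candidates.

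**Figure D2:**
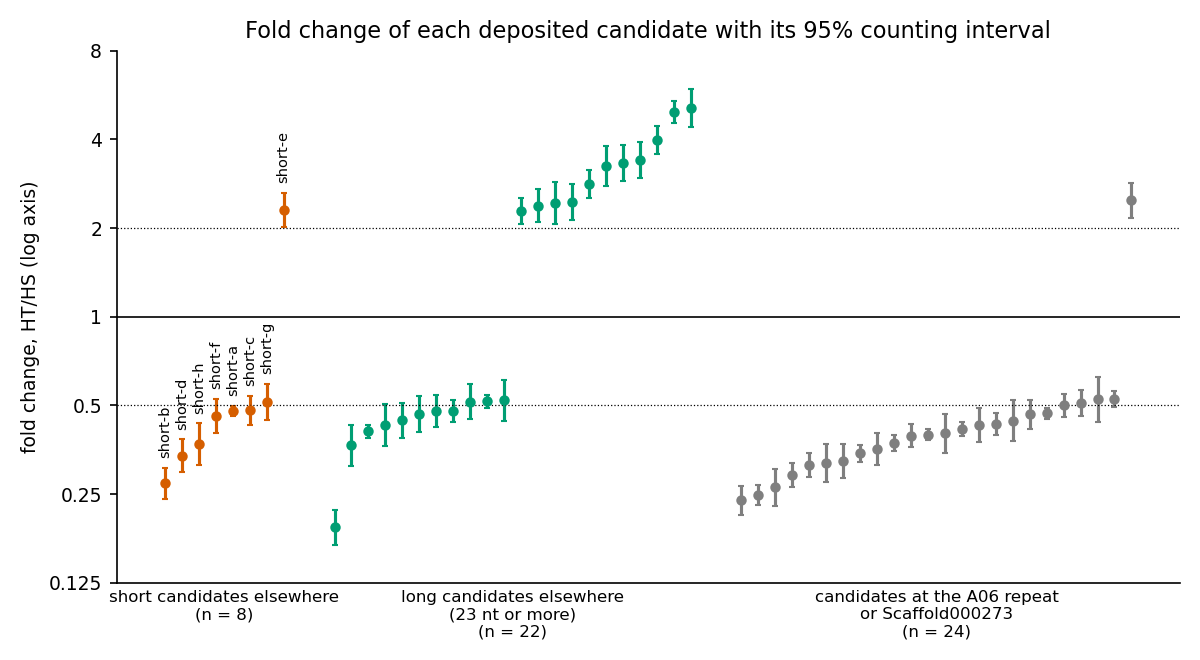
Fold change (HT/HS, log axis) of each of the 54 deposited candidates with its exact 95% counting interval, sorted within the short candidates elsewhere (n = 8), the long candidates elsewhere (n = 22) and the candidates at the A06 repeat or Scaffold000273 (n = 24). Dotted lines mark 2-fold, and short-e at 2.30 is the only short candidate above 1.

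The fold changes depended on what the libraries were scaled to. Relative to the summed reads of the candidates themselves, all log2 fold changes rose by 0.83, and only short-b (0.483) and short-e (4.09) remained past 2-fold. Relative to the summed reads of the known miRNAs they fell by 0.38, short-e then stood at 1.77 and was no longer called, and short-g at 0.394 was. No fold change crossed 1, but relative to the candidates' own sum short-g was at 0.911 with an interval of 0.790 to 1.05, so no direction could be read for it there.

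At the limit of length, the 22-nt candidates were short-f and short-g, and the only 23-nt candidate elsewhere, number 03 of the study, stood at 1132 reads for HT and 215 for HS, 5.11-fold higher in HT.

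The 38 windows were given with coordinates on the Brassica rapa sequence, version 1.1, as the header of a deposited table names it. They joined into 32 loci on 8 chromosomes and 3 scaffolds, and no gene annotation of that build was used here. Candidate short-b had 10 windows, short-e 9, short-c 7, short-d 6 and short-a 3, and short-f, short-g and short-h had 1 each. In every one of the 38 windows, as in all 281, the candidate lay exactly 10 nt from one end, so the window itself fixes one flank.

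Folding energies, as deposited, had a median of −25.35 kcal/mol over the 38 windows (range −55.1 to −13.2), where a lower value is a more stable fold. The medians were −29.1 in the A06 group, −31.3 in the long candidates elsewhere and −29.2 over all 281 windows. With each distinct window counted once, the medians were −30.3 for the short candidates and −33.2 over all. Without the windows of short-b, of which 6 were identical, that of the short candidates was −32.1 kcal/mol, below the −29.2 of all windows, so the order turned. The methods of the study ask for −20 kcal/mol or lower, and 14 of the 38 windows (36.8%) were above that, against 1 of 128 (0.781%) in the A06 group, 22 of 115 (19.1%) in the long candidates and 37 of 281 (13.2%) in all. Refolded at 37 °C with RNAfold, 8 of the 38 windows (21.1%) were above −20, against 21 of 115 (18.3%) in the long candidates, so the shares were then close, and none of these 8 was of short-b.

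The windows above −20 were spread over 6 of the 8 candidates. They were 6 of 10 in short-b, 3 of 9 in short-e, 2 of 3 in short-a, 1 each in short-c and short-d, and the only window of short-g, at −14.9 kcal/mol. The single windows of short-f, at −30.3, and of short-h, at −24.8 kcal/mol, were below it. The most stable windows were those of short-c and short-d at −55.1 and of short-e at −54.8 kcal/mol. These are also long windows, up to 198 nt, and per nucleotide the median energy was −0.255 kcal/mol against −0.301 over all candidates.

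**Figure D3:**
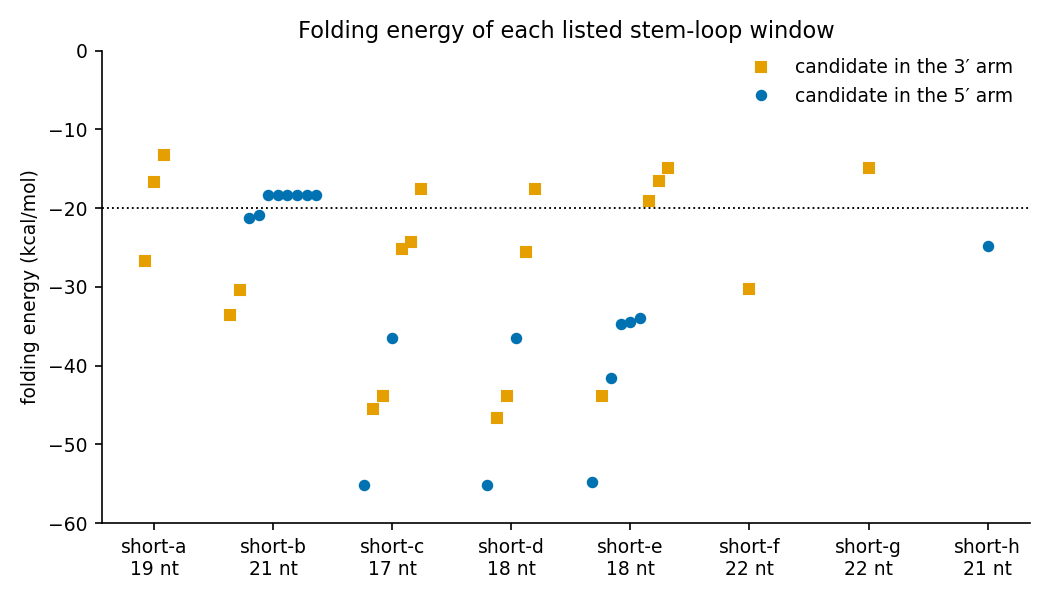
Deposited folding energy (kcal/mol) of each of the 38 windows by candidate. The arm is the side of the middle of the window that holds the candidate. The dotted line is the −20 kcal/mol of the study's methods. Of the windows, 14 lie above the line, and all 3 windows of short-a hold it in the 3′ arm.

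The arm was read from the side of the middle of the window on which the candidate lay, and no fold was used for it. By this reading the candidate lay in the 5′ arm in 18 of 38 windows (47.4%), against 167 of 281 (59.4%) in all candidates. The arm differed between windows of one sequence: it was the 5′ arm in 8 of 10 windows of short-b, 5 of 9 of short-e, and 2 each of the 7 and 6 of short-c and short-d. No deposited miRNA* match was given for 5 of the 8, against 24 of all 54 candidates, and the longest match was 9 nt, in short-d, short-g and short-h, where the longest over all candidates was 21 nt. A match of 9 nt is shorter than any of the candidates. The study itself listed no miRNA* for short-b, short-f and short-h.

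When the windows were folded again in this way, the median energy was −23.1 kcal/mol against −29.6 over all 281. At most 7 bases of the candidate were unpaired in 33 of 38 windows (86.8%), against 268 of 281 (95.4%). In 8 windows, 7 of them of short-b, the candidate paired with itself, against 12 of 281 in all. A deposited energy of −20 or lower, at most 7 unpaired bases and no pairing within the candidate were met together by 20 of 38 windows (52.6%), against 88 of 115 (76.5%) in the long candidates elsewhere and 233 of 281 (82.9%) in all. By sequence, 6 of the 8 had such a window, against 42 of all 54, and short-g and short-h had none. The study also asks for a length of 19 nt or more, which short-c, short-d and short-e fail whatever their fold, and length was used to choose the members. With that criterion 5 windows were left, 3 of short-b and 1 each of short-a and short-f. An identified miRNA*, which the study asks for as well, was not used in this count. The longest miRNA* match of short-a, short-b and short-f was 0 nt, so none of these 5 windows met that further criterion.

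The windows of short-a are shown because the same 19 nt stand in unrelated surroundings on the left and in identical surroundings on the right. The candidate is in capitals. The first lies at A01:5143025-5143123 and the second at A09:36385705-36385773, both on the minus strand.
short-a on A01: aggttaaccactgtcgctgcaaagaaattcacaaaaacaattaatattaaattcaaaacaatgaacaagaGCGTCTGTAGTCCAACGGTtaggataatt
short-a on A09: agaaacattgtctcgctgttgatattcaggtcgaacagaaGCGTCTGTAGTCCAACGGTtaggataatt
Over the 3 windows, 2 of the 10 positions before short-a were identical and all 10 positions after it. The other windows of the shortest candidates followed the same pattern. In the 7 windows of short-c and the 6 of short-d, 1 of 10 positions was identical before and 9 after, and in the 9 of short-e, 1 before and all 10 after. The single window of short-g starts its candidate with ttaggataat, and these 10 nt are also the last base of short-a with the 9 that follow it in all 3 of its windows, a likeness that was noticed after the values were seen.

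Since the repeated sequence ran on past short-c, short-d and short-e, the longest windows could be read further downstream. The first 82 nt of a window of short-d at A03:11136930-11137087 (plus strand) and the first 91 nt of one of short-e at A01:25278146-25278253 (plus strand) are shown with the candidate and, after it, a match to GGTTCGA followed by any 2 bases and CC in capitals.
short-d on A03: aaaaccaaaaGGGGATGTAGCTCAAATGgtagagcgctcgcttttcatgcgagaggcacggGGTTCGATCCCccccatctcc
short-e on A01: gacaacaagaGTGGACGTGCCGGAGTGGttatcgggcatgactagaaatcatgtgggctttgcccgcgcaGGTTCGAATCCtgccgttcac
This motif, here called the B box, is an internal promoter element of tRNA genes, which are transcribed by RNA polymerase III. In a tRNA the ends of the molecule pair over 7 bases to form the acceptor stem. Searched on both strands, the B box was in 9 of 38 windows (23.7%), which were all 9 among the 281 windows of all candidates (3.20%). They were 5 windows of short-e, 2 of short-c and 2 of short-d, all on the strand of the candidate.

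The match began 51 nt from the first base of short-c and short-d and 60 nt from that of short-e, at the same distance in every window. The windows of short-d with the box lie at the same loci as those of short-c, so the 9 windows are not independent. In all 9 windows the first 7 bases of the candidate could pair with 7 bases downstream of the B box. Each pairing had 6 Watson-Crick pairs and 1 G-U pair. The paired segment ended 72 nt from the first base of short-c and short-d and 81 nt from that of short-e. It was the best match over all positions downstream of the box. The search was run in these 9 windows only, so no share over other windows is given. Whether the box is seen depended on where the window was laid. Of the short candidates, 9 windows reached 60 nt or more past the candidate and all 9 held it. Such windows of the other candidates numbered 85 and held none. No window of short-a, short-b, short-f, short-g or short-h reached that far, so a box at these distances could not be seen in them. The methods of the study state that reads and precursors resembling tRNA were discarded. Of the 3 sequences with this arrangement, short-c and short-d, where one lies within the other, were lower in HT and short-e was higher. The origin of their reads was not tested.

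**Figure D4:**
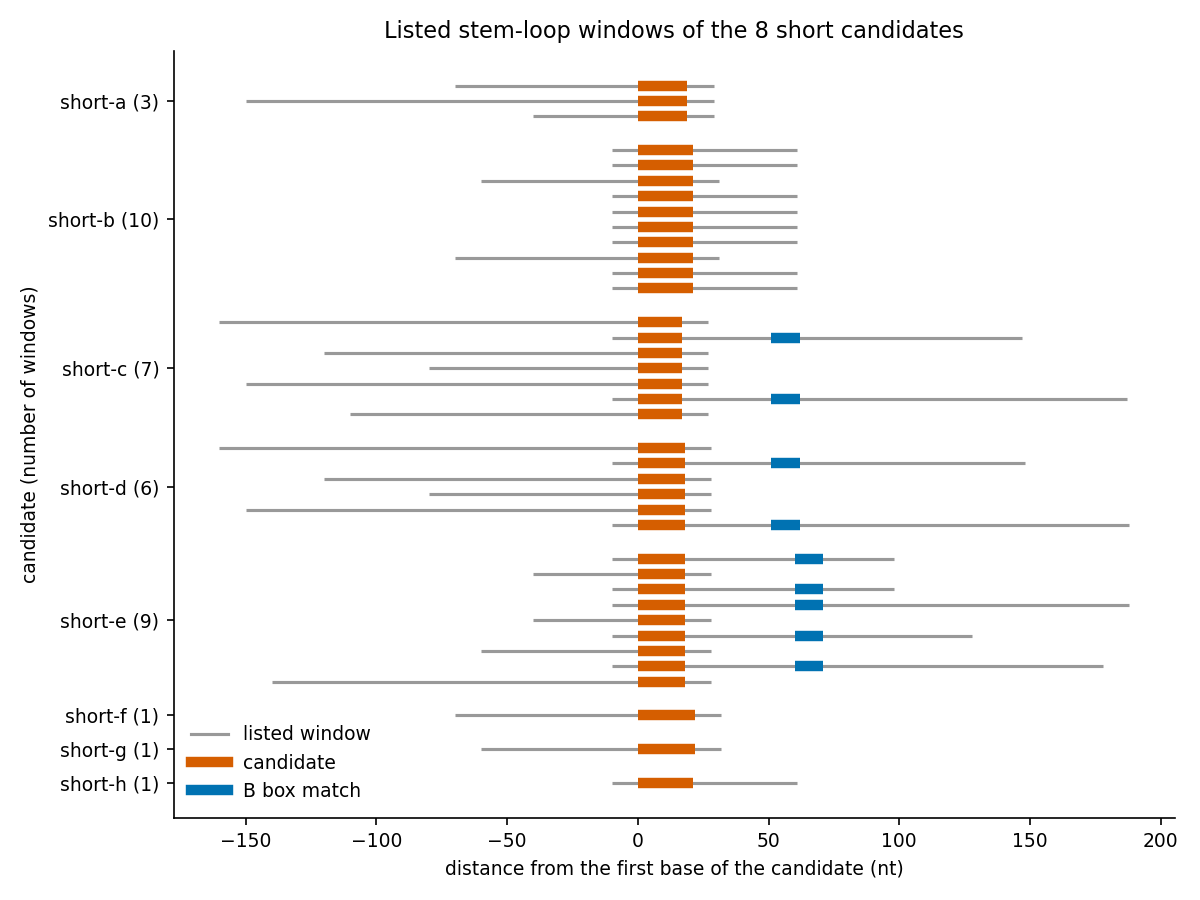
The 38 listed windows drawn to scale, with the distance in nt from the first base of the candidate (orange) and the B box match in blue. The box starts at 51 nt in 4 windows of short-c and short-d and at 60 nt in 5 windows of short-e, and windows that stop soon after the candidate do not reach that distance.

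Candidate short-b differed from these in that its left flank was repeated too: all 10 positions before it were identical over its 10 windows, and 9 of 10 after it. Of the 10 windows, 6 were the same letter for letter at −18.3 kcal/mol. An example of these and a longer window are shown, the first at A01:25704987-25705057 and the second at A08:6842338-6842438, both on the minus strand, with the candidate in capitals.
short-b on A01: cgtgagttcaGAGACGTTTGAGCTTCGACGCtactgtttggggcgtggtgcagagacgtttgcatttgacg
short-b on A08: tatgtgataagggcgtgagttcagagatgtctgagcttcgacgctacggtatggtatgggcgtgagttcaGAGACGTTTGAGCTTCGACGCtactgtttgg
The A08 window held a second copy on the same strand, identical to short-b at 19 of 21 bases and starting at base 24 of the window. A window on A01 (4364945-4365035, minus strand) held one identical at 18 of 21. The other 8 windows repeated the first 10 bases, gagacgtttg, downstream.

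The copies of short-b also lay near each other. Of its loci, 4 pairs were within 10 kb, on A01 at 4868 and 4318 nt, on A02 at 4622 nt and on A08 at 4487 nt between starts. On A02 a shared locus of short-c and short-d started 3196 nt before one of short-b. On A09 a locus of short-c and a shared locus of short-c and short-d were 4871 nt apart.

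Several members were not independent of other deposited sequences: 4 of the 8 shared a run of 15 nt or more with another deposited candidate. The 17 nt of short-c are the first 17 of short-d, and all 6 windows of short-d overlap windows of short-c. Their reads summed to 797 for HT and 1885 for HS, with a fold change of 0.410 (0.377 to 0.446). The longer form, short-d, made up 40.7% of these reads in HT (exact 95% interval 37.2 to 44.2) and 49.4% in HS (47.2 to 51.7), so the shorter form was relatively more frequent in HT beyond counting error.

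All 22 nt of short-f lie within a 24-nt candidate of the study, number 33, here with the shared run in capitals.
number 33: gAGACAGACTGTACTAGCGACGCt
The HT library held 311 reads of the 24-nt form and the HS library 677, a fold change of 0.446 (0.388 to 0.510), and short-f made up 51.8% of the pair's reads in HT and 50.9% in HS. The forms were thus near equal in both libraries. The only window of short-f is at Scaffold000140:6973-7074 on the plus strand and overlaps that of the 24-nt form.
short-f on Scaffold000140: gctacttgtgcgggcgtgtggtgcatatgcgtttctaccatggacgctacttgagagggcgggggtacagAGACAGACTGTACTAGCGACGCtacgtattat

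By sequence, short-h was close to the A06 group although its own listed window is elsewhere. The window lies at Scaffold000705:2119-2189 on the plus strand, and a candidate of the A06 group shares 20 of its nt, in capitals.
short-h on Scaffold000705: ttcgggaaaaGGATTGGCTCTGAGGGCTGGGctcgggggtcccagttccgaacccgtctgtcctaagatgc
candidate of the A06 group: GATTGGCTCTGAGGGCTGGGc
The A06 candidate was represented by 1816 reads in the HT library and 4237 in the HS library, a fold change of 0.416 (0.393 to 0.439), beside 0.370 (0.314 to 0.434) for short-h. The complete short-h stands in 7 of its 8 windows, 3 at the A06 repeat, 3 on Scaffold000273 and 1 on Scaffold000705 (2010-2160, plus strand), where it overlaps the window of short-h itself. Of the reads of both forms short-h made up 10.5% in HT and 11.6% in HS. Its absence from the A06 group therefore rests on which stem-loops were listed.

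The window of short-g, at A01:24035539-24035630 on the plus strand, folded weakly and shared no run of 15 nt with another candidate.
short-g on A01: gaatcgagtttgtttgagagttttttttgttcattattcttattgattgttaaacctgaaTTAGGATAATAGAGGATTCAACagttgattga
It was the member with the lowest GC content, the only one to begin with T and the one whose fold change, 1.95-fold lower in HT, was smallest.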

How the data were processed

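Small RNA reads of 1 HT and 1 HS library were trimmed by the authors to 16 to 31 nt, cleared of reads resembling rRNA, tRNA, snRNA and snoRNA in Rfam, compared with miRBase and searched with psRobot for stem-loops in Brassica rapa genome sequence and Brassica expressed sequence tags. The labels describe single-end and the methods paired-end reads, and miRBase is given as release 18, 19 or 21, while the age of the plants and the genome source in the methods differ from those in the labels and file headers used here. The deposited tables of candidates hold raw counts, TPM, windows and folding energies. Their columns of fold changes and p-values, the authors' own comparisons, were not used. Energies are from mfold per the methods.

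Members were taken from the UP and DOWN tables by length and position, and members and lists were chosen with earlier results of these data known. Library totals were recovered from the deposited counts and TPM. Fold changes of TPM, with exact Clopper-Pearson intervals (95%), and two-sided Fisher's exact tests over all 54 candidates were computed with SciPy 1.17.1. They compare libraries, not genotypes, and since PCR copies were not marked, the intervals cover counting error only. The test was tested on simulated counts with counting error only, so without differences between plants or preparations. Of 1041 features, 200 of 200 changed 4-fold and 1 of 841 unchanged ones were called. Only features with at least 200 expected reads were changed, and changes near 2-fold were not simulated, so this does not speak for calls near that limit. Windows were refolded with ViennaRNA 2.7.2. All members are named, and other candidates only where 15 nt or the seed are shared, apart from the 23-nt neighbour of the length limit, named after its values were seen. A candidate gets a study number where the sequences are identical.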

Additional observations from a re-analysis of the deposited data

How the results depend on the processing

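No fold change crossed 1 under any scaling tried, but short-g was at 0.911 (Fisher's exact p = 0.202) relative to the candidates' own sum, so no direction can be read for it there. The median fold change (HT/HS) of 0.470 became 0.835 relative to the candidates' own sum, 0.361 relative to the known miRNAs' sum and 0.378 with a median of ratios over the known miRNAs, because each scaling multiplies all folds by 1 constant. The number called was 2 relative to the candidates' own sum and 1 with a fold change over 3. It was 8 with a fold change over 1.5, and 7 with the known miRNAs as the scale, where short-g replaced short-e. The median energy of −25.35 kcal/mol is −0.255 per nucleotide, a different unit. Leaving out short-b, chosen after seeing the data, gave −32.1 kcal/mol and counting identical windows once −30.3. The first is below the −29.2 of all candidates, so the order turns, and the second is above the −33.2 of all candidates counted the same way. With a shared run of 18 nt or more, 2 of the 8 shared a run with another candidate. No paired analysis was possible because there was 1 library per genotype. For the same reason no library could be left out. A count of 0 allows up to 3 reads, or 0.111 TPM in HT and 0.114 in HS, and all members were far above it.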
